A study of Mus musculus with 14 samples.

Results

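Cells that had infiltrated rejected allogeneic mouse hearts were compared with whole rejected allogeneic hearts, at the level of microRNAs. The comparison takes the 3 arrays of allogeneic graft-infiltrating lymphocytes (GIL) and the 3 arrays of allogeneic heart grafts, chosen by their labels, which are 6 of the 14 arrays of the study. In both groups a BALB/c heart had been transplanted heterotopically (at a site other than the heart's normal one) into a C57BL/6 recipient, and the labels record rejection. The GIL were taken on day 5 after transplantation and the hearts on day 7, so that day and tissue cannot be told apart. The remaining arrays serve here as a frame. They are 3 of syngeneic GIL on day 5 and 3 of syngeneic hearts on day 7 (C57BL/6 hearts in C57BL/6 recipients, no rejection), 1 of hearts of normal BALB/c mice, and 1 of mononuclear cells from the blood of normal C57BL/6 mice (PBMC). All mice were 8 to 10 weeks old, and each array held RNA of 3 pooled animals, 100 ng of each. How the infiltrating cells were recovered from the grafts, and whether they were purified, is not given in the sources used here. The labels do not say that the 3 pools of a group were independent, so that p-values measure only the spread between these arrays.

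MicroRNAs are short RNAs, loaded into Argonaute proteins, which repress messenger RNAs that pair with bases 2 to 8 of the microRNA, its seed. Several are restricted to cell types and so mark the cells in a mixed sample. miR-142 is made throughout the blood lineages, miR-150 in mature lymphocytes, miR-223 in myeloid cells and miR-451 and miR-486 in red cells, whereas miR-1 and the miR-133 family belong to muscle, and miR-208 and miR-499 are encoded in introns of myosin genes. A rejected heart contains its infiltrate, so that whole graft and infiltrate share cells.

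The mature sequences that the results below turn on are shown here in groups, with the seed in capitals, as given by RefSeq for the mouse genome build GRCm38.p6. Of 22 microRNAs looked for, 21 were matched; miR-486 is named only. The first group marks leukocytes (miR-142-3p, chr11:87756864-87756927, plus strand, coordinates of the hairpin), red cells (miR-451, chr11:78073170-78073241, plus), heart muscle (miR-499, chr2:155622880-155622958, plus; miR-133b, chr1:20682769-20682887, plus) and mesenchymal cells (miR-199a-3p, made from hairpins at chr1:162217814-162217923, plus, and chr9:21496495-21496564, minus).
miR-142-3p: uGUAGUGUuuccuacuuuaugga
miR-451: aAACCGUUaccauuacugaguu
miR-499: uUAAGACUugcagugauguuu
miR-133b: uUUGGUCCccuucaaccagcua
miR-199a-3p: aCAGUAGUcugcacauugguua
The second group is the miR-29 family, shown because all 3 members were lower in GIL. They share 1 seed, and miR-29a differs from miR-29c by 1 base (C10U, counted from the 5′ end, miR-29a first). miR-29a lies at chr6:31062660-31062747 (minus) and miR-29c at chr1:195037547-195037634 (plus), and miR-29b is made from chr1:195037040-195037120 (plus) and chr6:31063023-31063093 (minus).
miR-29a: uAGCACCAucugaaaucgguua
miR-29b: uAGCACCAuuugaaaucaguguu
miR-29c: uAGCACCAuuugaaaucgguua
The third group comes from 1 cluster of chromosome 12, the imprinted Dlk1-Dio3 region, and was higher in GIL. These 4 hairpins lie on the plus strand within 34.7 kb, chr12:109709060-109743795, and their seeds differ.
miR-379: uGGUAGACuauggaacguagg
miR-411: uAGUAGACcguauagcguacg
miR-495: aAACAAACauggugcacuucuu
miR-410: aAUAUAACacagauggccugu
The last group holds 2 pairs with a shared seed whose members did not read alike. miR-211 (chr7:64205806-64205911, plus) and miR-204 (chr19:22750605-22750672, plus) differ by U17A, with miR-211 first. miR-200a (chr4:156054896-156054985, minus) and miR-141 (chr6:124717914-124717985, minus) differ by C17A and U22G, with miR-200a first.
miR-211: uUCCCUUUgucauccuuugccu
miR-204: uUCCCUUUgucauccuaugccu
miR-200a: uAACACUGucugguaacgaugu
miR-141: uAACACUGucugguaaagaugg

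The microRNAs were measured by real-time PCR on TaqMan rodent array cards with 375 microRNA assays, 335 with mouse and 40 with rat names. The measured value is the threshold cycle (Ct), the PCR cycle at which fluorescence crosses a threshold, so that a lower Ct is more RNA. Here a level is minus the Ct plus the mean Ct of the 154 microRNA assays read before Ct 35 on all 6 arrays, so that 0 is that mean and a difference of 1 is about 2-fold. A well that was undetermined or at Ct 35 or later counts as undetected and was set to 35. The hearts detected 239 to 250 assays at a mean reference Ct of 21.8 to 22.3, and the GIL detected 161 to 213 at 24.4 to 28.3. GIL pool 3 stood apart (161 assays, reference Ct 28.3, against 208 and 213 assays in the others). An undetected well therefore stands at a level of -6.73 in GIL pool 3, at -10.6 and -9.74 in pools 1 and 2, and at -12.7 to -13.2 in the hearts. The 2 tissues were deposited in separate tables whose threshold settings are not given, and no run day held arrays of both groups. Run day, table, day after transplantation and tissue cannot be told apart. Of the small RNA controls, which took no part in scaling, Y1 (0.95) and snoRNA135 (0.45) lay higher in GIL than in heart on the log2 scale, and MammU6 (-0.19), U87 (-0.28) and snoRNA202 (-0.41) lower. The PBMC array read 141 of the 154 reference assays and the normal heart array 149, and the rest entered their means at Ct 35. On this scale snoRNA202 stood at 8.06 in PBMC and at 6.18, 5.24 and 6.31 in GIL. The place of GIL against PBMC under other scalings was not tested.

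The first question was which microRNAs set the infiltrate apart from the whole rejected heart. Of the 155 assays detected on every array of both groups, 101 (65.2%) differed by less than 2-fold, and the median size of the difference was 0.74 log2 units. Muscle miR-133a (1 of 6 cardiac muscle microRNAs called), both red cell microRNAs and all 3 of the miR-29 family were lower in GIL. Of the Dlk1-Dio3 cluster 4 of 25 tested members were called higher and 1 lower, and miR-199a-3p was higher. None of the tested leukocyte markers was called higher in GIL. In limma (two-sided, Benjamini-Hochberg adjusted p under 0.05), 38 of the 231 assays tested were called (16.5%), 14 higher in GIL (6.06%) and 24 lower (10.4%), and 89 had an unadjusted p under 0.05. All 38 differed by more than 2-fold with no overlap between the 3 and 3 arrays, a separation seen in 115 of 231 assays (49.8%). The number called rests on few arrays. It was 2 without heart pool 1 (miR-211 and miR-451), 3 without heart pool 2 (these and miR-29a), 13 without heart pool 3, 25 without GIL pool 1, 24 without GIL pool 2 and 50 without GIL pool 3, so that every other one of the 38 calls ended when heart pool 1 was left out. In the fit without GIL pool 3, 34 of the 38 were called and all 38 kept their sign. Scaling to MammU6 left 19 calls, and scaling to snoRNA202 left 17. The split of 14 higher and 24 lower became 3 and 11 when scaled to snoRNA135 with snoRNA202, 19 and 21 when scaled to the median and 23 and 22 after quantile normalization. These scalings moved the median difference of all assays from -0.30 to between -0.32 and 0.11.

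**Figure D1:**
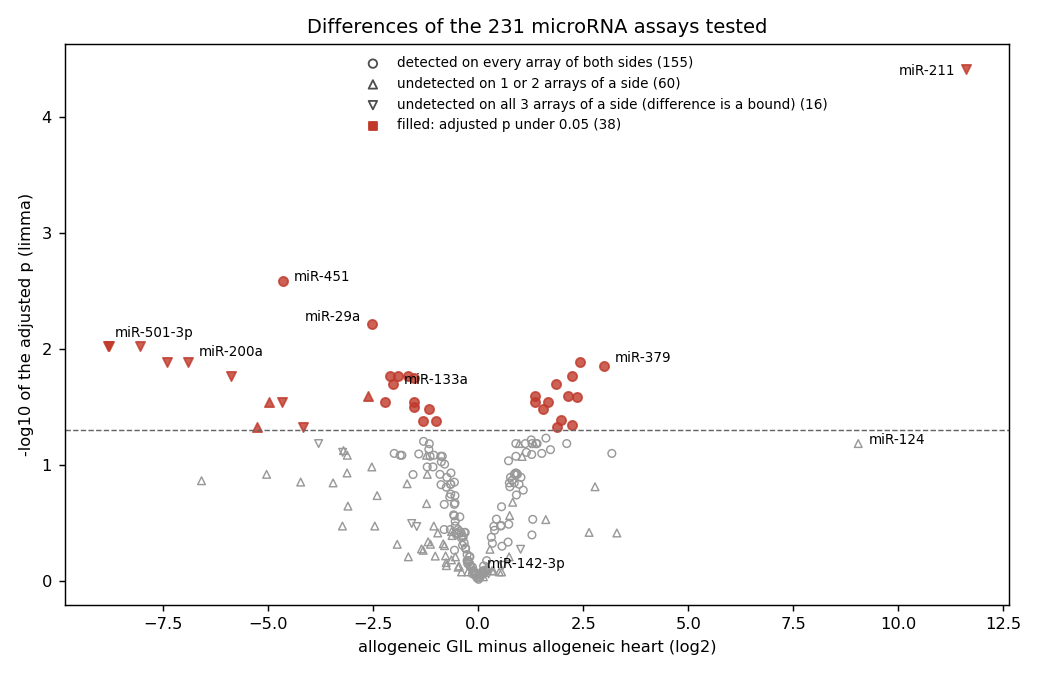
Difference between allogeneic GIL and allogeneic hearts (x axis, log2) against the -log10 of limma's adjusted p (y axis) for 231 assays; the dashed line is an adjusted p of 0.05. Filled symbols are the 38 called assays; the differences past 5 log2 units on either side are assays undetected on at least 1 array of a side, whereas the 155 assays read on every array lie between -4.66 (miR-451) and 3.18 (miR-376b).

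The pan-leukocyte microRNAs were not called between the infiltrate and the whole rejected heart. miR-142-3p, the pan-leukocyte microRNA shown above, stood at 5.26, 5.30 and 5.87 in the GIL pools and at 5.64, 5.41 and 5.58 in the hearts. The 2 sets of values overlap, with a difference of -0.07 ± 0.28 (SE, n = 3 arrays per group, limma adjusted p = 0.88). On the same scale it stood at 8.12 in PBMC and at 1.83 in normal heart. Both kinds of sample thus lay between the 2 normal tissues on this scale. The control snoRNA202 also stood higher in PBMC (8.06) than in GIL (5.24 to 6.31), and the place of PBMC under other scalings was not tested. miR-142-5p, from the other arm of the same hairpin, differed by 0.13 ± 0.45. The summed level of the pair ran from 5.27 to 5.88 in GIL and from 5.42 to 5.65 in the hearts (log2 of the sum, taking both assays as equally efficient).

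Among resting lymphocyte markers 0 of 5 tested were called, with a median difference of -0.53 beside -0.30 over all 231 assays. miR-150 stood at 5.54, 4.44 and 5.29 in GIL and at 4.09, 4.34 and 4.04 in the hearts. All 3 GIL values lay above the hearts, by 0.93 ± 0.37 on average, without passing the test (limma adjusted p = 0.12). PBMC held 8.34. miR-181a, which tunes T cell receptor signalling, differed by 0.13 ± 0.26. miR-342-5p was detected on 2 of 3 GIL arrays and differed by -3.12 ± 1.20 (limma adjusted p = 0.12).

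Of 11 tested microRNAs linked to activated T cells, 1 was called, and it was lower in GIL, beside 10.4% of all 231 assays called lower. That one is miR-21, which is induced by T cell activation and also abundant in fibroblasts. It stood at 5.04, 5.56 and 5.31 in GIL and at 6.94, 6.77 and 6.77 in the hearts, a difference of -1.52 ± 0.26 (2.88-fold lower, limma adjusted p = 0.018). miR-21 was called under 2 of 6 scalings, and was not called when any 1 heart pool was left out. The 10 others were not called, and 8 of them lay below 0. miR-155, which T and B cells induce on activation, stood at 2.48, 1.99 and 2.43 in GIL and at 3.20, 2.34 and 3.11 in the hearts (-0.59 ± 0.35). miR-146a, a brake on inflammatory signalling, differed by -0.48 ± 0.35, and miR-182, which supports clonal expansion of helper T cells, by -0.66 ± 0.48. The myeloid list had 1 of 4 called, also lower, beside the same 10.4%. miR-223 stood at 4.45, 2.65 and 2.97 in GIL and at 5.32, 4.48 and 5.84 in the hearts. These values do not overlap, and the difference of -1.86 ± 0.61 did not pass (limma adjusted p = 0.083). The called member, miR-125a-5p, is also expressed outside the blood, and differed by -1.53 ± 0.32.

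**Figure D2:**
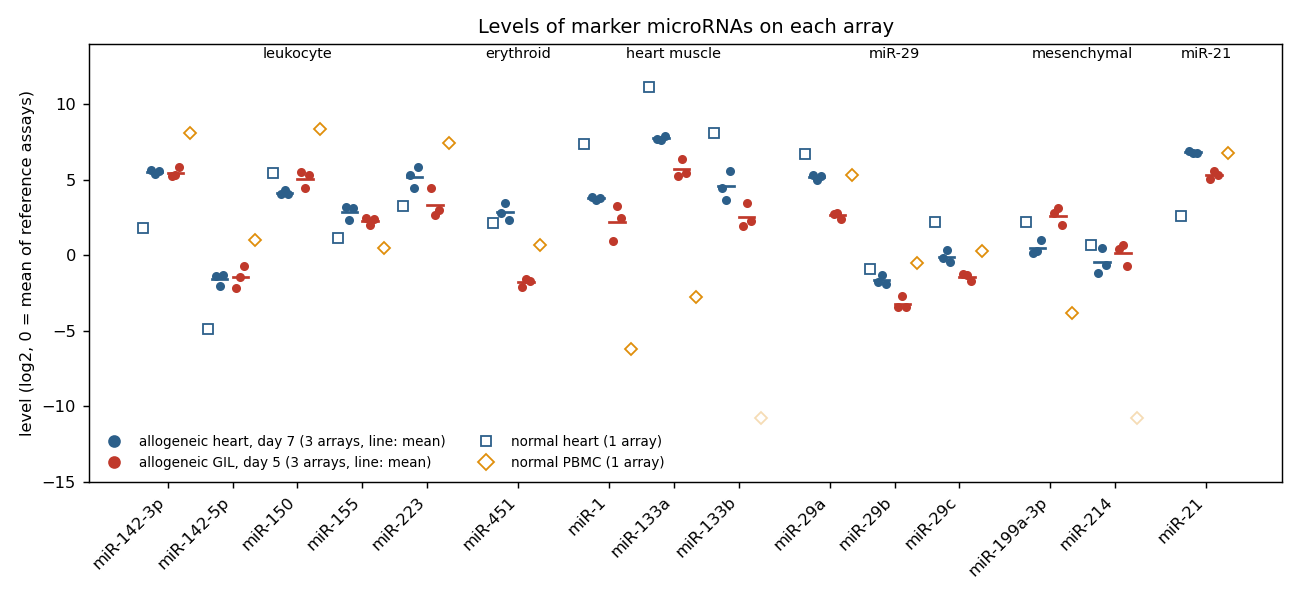
Levels (log2, relative to the mean of 154 reference assays) of 15 microRNAs on each array: allogeneic hearts in blue, allogeneic GIL in red, 3 arrays each with the mean as a line; open squares are the normal heart array and open diamonds the PBMC array, and faint symbols are undetected wells at their limit. For miR-142-3p the GIL and heart points overlap near 5.5, whereas miR-451 and the miR-29 family separate; muscle microRNAs in GIL lie between the hearts and PBMC.

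Muscle microRNAs were present in the infiltrate. miR-133a stood at 5.26, 6.37 and 5.47 in GIL and at 7.69, 7.62 and 7.91 in the hearts, beside 11.1 in normal heart and -2.73 in PBMC. The GIL values lay below all hearts, by 2.04 ± 0.37 log2 units (4.11-fold lower, limma adjusted p = 0.020), and above the PBMC array. miR-133b stood at 1.96, 3.50 and 2.26 in GIL and at 4.46, 3.70 and 5.56 in the hearts, a difference of -2.00 ± 0.64 (limma adjusted p = 0.080), and was undetected in PBMC. miR-1, which restrains the growth of cardiac muscle, stood at 0.92, 3.29 and 2.48 in GIL and at 3.86, 3.67 and 3.81 in the hearts (-1.55 ± 0.62, limma adjusted p = 0.12). A second assay, with the rat name of miR-1, gave a smaller difference, -0.57 ± 0.64.

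The myosin-encoded microRNAs were undetected on some or all GIL arrays. miR-499, detected on 2 of 3 GIL arrays, stood at -4.33 and -2.61 in pools 1 and 2 and at -1.47, -1.78 and -1.07 in the hearts (-3.12 ± 1.03, limma adjusted p = 0.083). miR-208, detected on 2 of 3 GIL arrays, differed by -1.06 ± 0.73. miR-208b was undetected on all 3 GIL arrays and read on all 3 hearts, at a level that GIL pool 3 could not have resolved, and was at least 2.76-fold lower in GIL (limma adjusted p = 0.34). Of the 6 cardiac muscle microRNAs, 5 were thus detected on some GIL array and 3 on all 3, against 2 of 6 in PBMC, where the summed level was -2.61. The summed level ran from 5.46 to 6.70 in GIL and from 7.80 to 8.24 in the hearts, with 11.4 in normal heart. The list had 1 member called, lower in GIL, beside 10.4% of all 231 assays, with a median difference of -1.78. Without GIL pool 2 or without GIL pool 3 it had 2. It had 0 when any 1 heart pool was left out. Scaled to MammU6, to snoRNA135 with snoRNA202 or to snoRNA202 alone it also had 0. Fewer cells of a type and less RNA per cell cannot be told apart in these samples. The part of muscle RNA in the level of any other microRNA in GIL was not tested.

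Red cell microRNAs were lower in the infiltrate. miR-451, which is abundant in erythrocytes, stood at -2.11, -1.57 and -1.69 in GIL and at 2.79, 3.49 and 2.33 in the hearts, with 0.69 in PBMC and 2.12 in normal heart. The groups lay apart by -4.66 ± 0.38 (25.3-fold lower, limma adjusted p = 0.0026), and it was called in each of 20 other settings tried. miR-486 was undetected on all 3 GIL arrays and stood at -4.43, -4.21 and -4.39 in the hearts, so that it was at least 25.6-fold lower in GIL (limma adjusted p = 0.029). Leaving out GIL pool 3 gave -5.77. miR-486 was also undetected in PBMC and in the 3 syngeneic GIL arrays, and read on all 7 heart arrays. Both tested members of the erythroid list were thus called lower, a list of 2.

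MicroRNAs of vessel walls and stroma went both ways. miR-199a-3p, a microRNA of fibroblasts and other mesenchymal cells, stood at 2.79, 3.12 and 1.98 in GIL and at 0.17, 0.32 and 0.99 in the hearts. It was higher in GIL by 2.14 ± 0.42 (4.40-fold, limma adjusted p = 0.025), far above the -3.79 of PBMC, and close to the 2.18 of normal heart. miR-214, its neighbour in the genome, differed by 0.57 ± 0.58, and miR-199a-5p, from the other arm, by 3.30 ± 2.61 with 1 heart array undetected. The list had 1 of 3 called, beside 6.06% of all 231 assays called higher. The smooth muscle microRNAs miR-143 and miR-145 differed by 0.55 ± 0.37 and 1.12 ± 0.33 (limma adjusted p = 0.34 and 0.066). Endothelial miR-126-3p stood at a mean of 5.16 in GIL and 5.61 in the hearts, a difference of -0.45 ± 0.34, with 9.10 in normal heart and 1.16 in PBMC. Of 4 endothelial markers, 1 was called, beside 10.4% of all 231 assays called lower. miR-10b, detected on 1 of 3 GIL arrays, was lower in GIL by 4.98 ± 1.05, whereas its relative miR-10a differed by -0.55 ± 0.29.

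All 3 members of the miR-29 family, which represses collagens and other matrix genes, were lower in the infiltrate. miR-29a stood at 2.75, 2.84 and 2.44 in GIL and at 5.30, 5.00 and 5.29 in the hearts, a difference of -2.52 ± 0.26 (5.74-fold lower, limma adjusted p = 0.0061). PBMC held 5.32, so that on this scale GIL lay below the hearts and below PBMC. miR-29b differed by -1.53 ± 0.33 and miR-29c by -1.32 ± 0.32 (limma adjusted p = 0.032 and 0.042). Their GIL values also lay below all hearts and, on this scale, below the single PBMC array. The control snoRNA202 likewise stood lower in GIL (5.24 to 6.31) than in PBMC (8.06), and the place of PBMC under other scalings was not tested. Without GIL pool 3, 1 of the 3 was called, miR-29a; scaled to MammU6 1 was, and scaled to snoRNA202 0 were.

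The Dlk1-Dio3 cluster, transcribed from the maternal chromosome, is prominent in embryonic and mesenchymal tissue. Of 42 assays on the card 25 were tested, of which 4 were called higher in GIL and 1 lower, with a median difference of 0.74. Over all 231 assays tested, 6.06% were called higher and 10.4% lower. Among these 25, 16 lay above 0. miR-409-3p (-2.53 ± 0.93) and miR-134 (-2.41 ± 1.18) lay below the hearts without being called, each with GIL pool 3 undetected. miR-379 stood at 0.54, 0.43 and -0.73 in GIL and at -3.40, -2.67 and -2.70 in the hearts (3.00 ± 0.45, 8.0-fold higher, limma adjusted p = 0.014), and was undetected in PBMC. Without GIL pool 3 the difference was 3.46. miR-495 was 5.36-fold higher (2.42 ± 0.35), miR-411 3.90-fold (1.96 ± 0.46) and miR-410 2.92-fold (1.55 ± 0.35). All 4 are the microRNAs printed above from chr12:109709060-109743795, and for each of them the lowest GIL array lay above the highest heart array. miR-382 of the same cluster was called lower, with 1 of 3 GIL arrays detected (-5.27 ± 1.33, limma adjusted p = 0.047); it was not called without GIL pool 3 (adjusted p = 0.053). Of the 25, PBMC had 7 detected and normal heart 24. Without GIL pool 3 the counts were 8 higher and 2 lower, scaled to MammU6 2 and 1, and scaled to snoRNA135 with snoRNA202 they were 0 and 1.

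In the other families 0 to 3 members were called, beside 16.5% of all 231 assays tested. In the Sfmbt2 cluster, a repeat of microRNA genes inside an intron of Sfmbt2, 3 of 6 tested were lower, miR-467a by 2.11 ± 0.34, miR-467d by 2.63 ± 0.51 with GIL pool 3 undetected, and miR-669a by 1.16 ± 0.26. The proliferation-linked miR-17 cluster and its paralogues had 0 of 11 called, with a median of 0.20, and let-7 had 0 of 8, with a median of -0.41. Within the miR-17 list quantile normalization called 3 higher. The miR-15/16 family had 1 of 6 called. miR-497 was higher by 1.65 ± 0.34 and miR-16 differed by 0.10 ± 0.30, both of 1 seed family. In the miR-23/27/24 group miR-24 was lower by 1.68 ± 0.28. In the miR-125 and miR-99 group 2 of 5 were lower, miR-99a by 1.91 ± 0.32 and miR-125a-5p, also in the myeloid list. Of the miR-30 family 1 of 5 was called, miR-30a, lower by 1.01 ± 0.24 (limma adjusted p = 0.042), and under each left-out array it was not called. Outside the lists, miR-449a (2.35 ± 0.47), miR-450a-5p (2.23 ± 0.36) and 2 rat-named assays, rno-miR-224 (1.88 ± 0.47) and rno-miR-207 (1.86 ± 0.33), were higher in GIL.

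**Figure D3:**
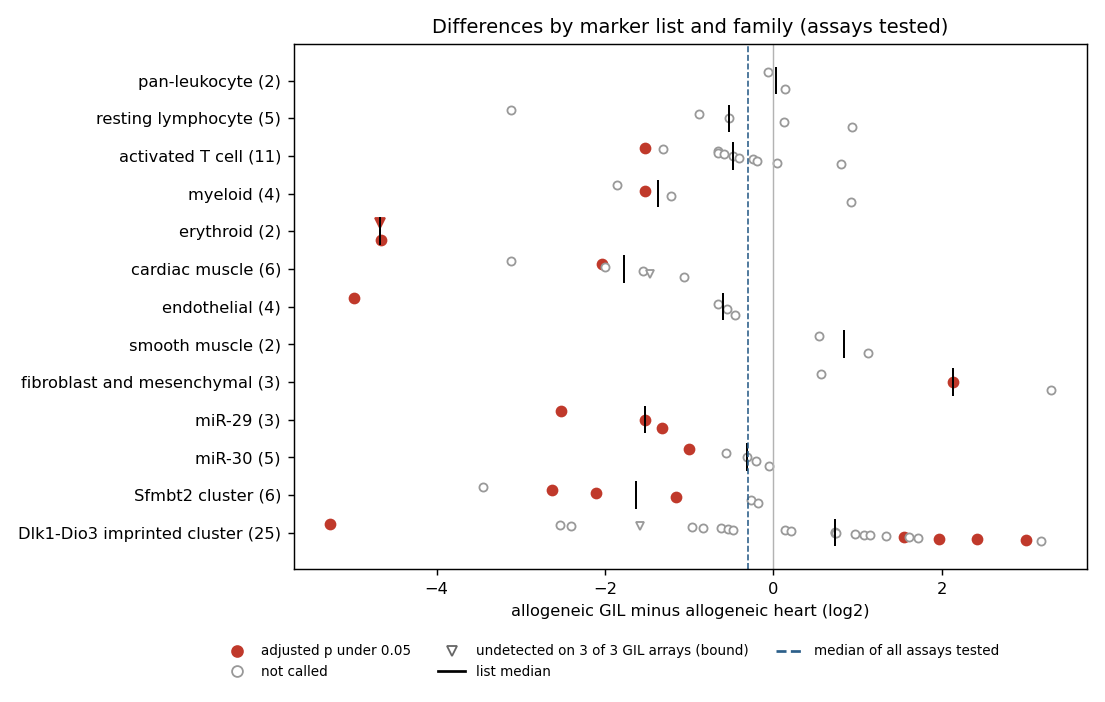
Difference between allogeneic GIL and allogeneic hearts (x axis, log2) for the tested assays of 13 lists (y axis, number tested in brackets); red symbols are called, open grey symbols are not, triangles are bounds for assays undetected on 3 of 3 GIL arrays, black bars are list medians and the dashed line is the median of all 231 assays, -0.30. The erythroid pair lies near -4.7 and the miR-29 family below 0, while the leukocyte and T cell lists spread around the dashed line.

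The largest differences of all came from assays that were read on one side and undetected on the other, and these need their detection beside them. Such an assay entered the test through the side that read it, and its p compares that side with the limits of undetected wells. On the heart side 15 tested assays were undetected on all 3 GIL arrays, of which 8 were called lower, and on the GIL side 1 was undetected on all 3 hearts. That one was miR-211, whose gene lies in an intron of Trpm1, a gene of pigment cells. It was read in GIL at Ct 26.4 to 29.0 (levels of -1.98, -1.62 and -0.69), in PBMC at Ct 23.0, and in no allogeneic heart. It was thus at least 3145-fold higher in GIL (11.62 ± 0.41, limma adjusted p = 3.86e-05). It was called in each of 18 other settings, which all rest on the same undetected heart wells and are no separate support. The software had marked all 3 GIL wells, so that it could not be tested with marked wells left out. Among the syngeneic arrays it was read on 1 of 3 hearts, at Ct 24, and on 0 of 3 GIL. miR-204, which differs by 1 base, was read on every array of both groups and differed by 1.38 (limma adjusted p = 0.066). miR-124, a neuronal microRNA, was read on 3 of 3 GIL arrays at Ct 25.6 to 29.0 and on 1 of 3 hearts at Ct 26 (9.05 ± 2.63, limma adjusted p = 0.066).

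On the other side, miR-501-3p was read at Ct 21.6 to 23.0 in the 3 hearts and on none of the GIL arrays, at least 452-fold lower (-8.82 ± 1.09, limma adjusted p = 0.0095). The same assay was undetected in normal heart and on 1 of 3 syngeneic heart arrays, with the other two at Ct 22.2 and 23.4. The rat-named assay for miR-532-5p was read at Ct 21.8 to 22.7 in the hearts and undetected in GIL (at least 445-fold lower), whereas the mouse-named assay for miR-532-5p was read on all 3 GIL arrays, at Ct 24 to 29, and differed by -0.52. The rat-named assay was also undetected in normal heart. Both assays for miR-339-3p were undetected in GIL and read in the hearts, the mouse-named one at Ct 22.5 to 23.3 (-8.04, at least 264-fold lower), while its rat-named counterpart gave -7.41. Both were read in PBMC. miR-503 was at least 59.5-fold lower, and miR-125b-3p at least 18.1-fold; both were read on all 3 syngeneic GIL arrays. miR-200a, an epithelial microRNA, was read at Ct 23.6 to 24.6 in the hearts and on none of the 6 arrays of syngeneic and allogeneic GIL, and was at least 120-fold lower (-6.91 ± 1.00). miR-141, of the same seed, was read on all 3 allogeneic GIL arrays and all 3 allogeneic hearts, and was higher in GIL by 2.23 ± 0.55 (limma adjusted p = 0.045), with 1 well marked by the software. Such switching between early and undetected also occurred inside groups. Among the 375 assays, 36 (9.60%) had a Ct under 30 on one allogeneic GIL array and no detection on another, as did 20 (5.33%) in allogeneic hearts. The part of failed wells in the differences of this size was not tested.

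The second question was whether GIL and heart differed in the same way in syngeneic transplants, where nothing was rejected. It was put as an interaction, the GIL minus heart difference in allogeneic transplants minus that in syngeneic ones, over 12 arrays scaled to the 148 assays read on all of them, so that differences shift slightly from those above. An offset between the 2 tables that is constant for an assay cancels in this contrast. An offset between run days does not. The syngeneic GIL arrays shared a run day that held no allogeneic GIL array. Among GIL, run day and kind of transplant therefore cannot be told apart. The 2 tissue differences, which share no array but are both taken between the same 2 tables, had a Pearson correlation of 0.64 and a Spearman correlation of 0.63 across the 148 assays, with 108 (73.0%) of the same sign. GIL and heart lay nearer to each other in allogeneic transplants. The size of the difference was smaller there in 95 assays (64.2%), its median was 0.72 against 0.96, and 49 assays against 71 differed by more than 2-fold. In limma, 53 of 241 assays tested were called (22% of them), 27 in the positive direction (11.2%) and 26 in the negative (10.8%). Over the 148 assays read on all 12 arrays, an alternative chosen after seeing the data, 55 were called (37.2%). The split of 27 and 26 became 10 and 4 when scaled to MammU6, 21 and 7 when scaled to snoRNA135 with snoRNA202, and 23 and 7 when scaled to snoRNA202. Scaling to MammU6 moved the median interaction of all assays from 0.00 to 0.68. The size of the difference was smaller in allogeneic transplants in 88 to 107 of the 148 assays over the 6 scalings.

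Between GIL and heart, 4 of the 6 cardiac muscle microRNAs differed less in allogeneic than in syngeneic transplants. Over all 241 assays tested, 11.2% were called in the positive direction. miR-133a was lower in GIL by 5.61 in syngeneic and by 2.01 in allogeneic transplants, an interaction of 3.60 ± 0.48 (limma adjusted p = 0.0012). Both sides moved. On this scale syngeneic GIL stood at 3.65, 3.56 and 4.30 and allogeneic GIL at 5.15, 6.26 and 5.39, while syngeneic hearts stood at 9.06, 9.49 and 9.79 and allogeneic hearts at 7.56, 7.48 and 7.78. No 2 of these 4 groups overlap. miR-133b (3.59 ± 0.76), miR-1 (3.46 ± 0.72) and miR-499 (4.96 ± 1.36) changed likewise, which makes the 4 called positive; without GIL pool 3 there were 5 of 6. Over the 6 scalings 3 or 4 were called, and all 6 members lay above 0. miR-499 was read on 1 of 3 syngeneic GIL arrays, so its syngeneic difference rests on the limit of 2 others. The remaining pair, miR-208 and miR-208b, gave 3.56 ± 1.44 and 3.06 ± 1.18 without passing (limma adjusted p = 0.11 and 0.090).

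All 5 members of the miR-30 family, which is abundant in heart muscle, were called with a positive interaction; scaled to MammU6 1 of the 5 was called. miR-30e, with the smallest p, stood at 0.47, 0.35 and 0.54 in syngeneic GIL and at 2.48, 2.64 and 2.79 in syngeneic hearts, but at 1.00, 1.26 and 1.24 against 1.56, 1.43 and 1.35 in the allogeneic pair. The difference was thus -2.18 in syngeneic and -0.28 in allogeneic transplants (1.91 ± 0.25, limma adjusted p = 0.0012, called in each of 20 other settings). Within the miR-29 family, miR-29c was called (2.38 ± 0.36, limma adjusted p = 0.0026), whereas miR-29a differed by -3.05 in syngeneic and -2.49 in allogeneic transplants (0.57 ± 0.28) and miR-29b by -1.81 and -1.50 (0.32 ± 0.37), and neither was called. The leukocyte markers miR-142-3p and miR-142-5p gave 0.22 ± 0.43 and 0.24 ± 0.53. In syngeneic transplants too they were not higher in GIL, with differences of -0.25 and -0.07. Of the resting lymphocyte list 2 of 5 were called positive, miR-181a (1.23 ± 0.29) and miR-150 (1.27 ± 0.40, limma adjusted p = 0.0496), and of the T cell list miR-146a (1.39 ± 0.41). The other calls of these lists were negative, miR-132 (-1.76 ± 0.40) and miR-210 (-2.14 ± 0.46) of the T cell list and miR-147 (-2.93 ± 0.68) and miR-125a-5p (-1.33 ± 0.33) of the myeloid one. Over all 241 assays tested, 11.2% were called positive and 10.8% negative. The lymphocyte, T cell and myeloid lists were not recounted under other scalings. Scaling to MammU6 took the interaction calls of all assays from 53 to 14.

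In the Dlk1-Dio3 cluster 11 of 26 tested members were called in the negative direction, 0 in the positive, and 15 were not called. Over all 241 assays tested, 10.8% were called in the negative direction. miR-495 was higher in GIL by 4.98 in syngeneic and 2.46 in allogeneic transplants (-2.53 ± 0.48, limma adjusted p = 0.0072), and miR-410 by 4.01 and 1.58 (-2.43 ± 0.38, limma adjusted p = 0.0032). miR-379 gave 4.51 and 3.04 and did not pass (-1.48 ± 0.49, limma adjusted p = 0.057). Without GIL pool 3, 13 of the 26 were called. Scaled to MammU6 or to the snoRNA controls 2 were, with 25 of 26 below 0 in each of the 6 scalings. miR-451 was called in the same direction, since its difference was -1.57 in syngeneic and -4.62 in allogeneic transplants (-3.06 ± 0.87, limma adjusted p = 0.035), a call lost when scaled to MammU6, to snoRNA135 with snoRNA202 or to snoRNA202 alone, and after quantile normalization. Its GIL levels lay between -3.11 and -1.68 on all 6 arrays, and its heart levels ran from -2.46 to 0.32 in syngeneic and from 2.20 to 3.35 in allogeneic grafts. Without GIL pool 3 its interaction was not called. miR-685, listed in early microRNA catalogues, changed sign. It was higher in GIL by 2.78 in syngeneic transplants and lower by 2.18 in allogeneic ones (-4.97 ± 0.59, limma adjusted p = 0.0012).

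**Figure D4:**
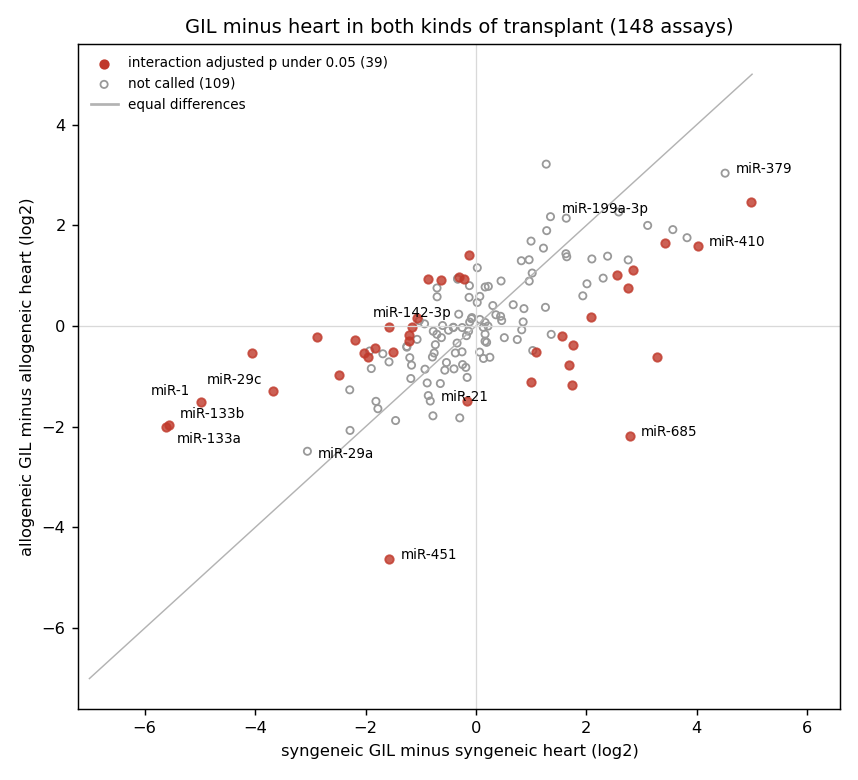
GIL minus heart difference (log2) in allogeneic transplants (y axis) against that in syngeneic transplants (x axis) for the 148 assays read on all 12 arrays; red points are the 39 of them whose interaction passed an adjusted p of 0.05 in the fit of 241 assays. Muscle microRNAs at the lower left lie above the grey line of equal differences, with syngeneic differences near -5 and allogeneic ones near -2, while miR-451 and miR-685 lie below it.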

How the data were processed

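The authors deposited 2 tables, exported from SDS 2.4 per the file headers, of which the Ct column was used as the measured value (unit "other": PCR cycles, not counts). Per the labels' protocols, a mirVana kit was used for the RNA, which was preamplified after reverse transcription and run on a 7900HT instrument; baseline and threshold settings are not given in the sources used here. In 1 well (let-7b, heart pool 2) the plate name did not match and the well was left out. Levels (log2, above) were compared in R 4.3.3 by lmFit and eBayes of limma 3.58.1, without covariates. Assays detected on all arrays of at least 1 group compared were tested. The procedure was tested on simulated data that held no undetected wells, so its behaviour on bounds was not tested. Members, lists and the naming rule were chosen with earlier results of these data known. The rule named the 10 largest called differences each way, the largest bounds, all tested cell type markers, up to 4 per family, the controls and the 5 smallest interaction p each way; miR-125b-3p, miR-204, miR-532-5p and the second miR-1 assay were named after their values were seen. On the undetected side a bound's SE holds only the spread of the arrays' limits, and no variation of the microRNA itself. These limits had an SD of 2.03 log2 units in GIL and 0.26 in the hearts. Replicate numbers did not pair the arrays. Arrays give no counts, so their number limits the precision. Results were recomputed with other scalings, detection limits, filters and fits, a replicate block, and each array left out.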

Additional observations from a re-analysis of the deposited data

Results flagged for a closer look

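The interaction of 10 assays stood out because the GIL minus heart difference was not the same in allogeneic and syngeneic transplants in limma's test of the difference itself (the 5 smallest p each way). In the positive direction these were miR-133a (3.60), miR-30e (1.91), miR-29c (2.38), miR-135a (2.50) and miR-187 (8.92). For miR-135a 1 allogeneic GIL array was undetected. miR-187 was read on the 3 syngeneic hearts at Ct 26 to 27.3 and on none of the other 9 transplant arrays, so its allogeneic difference of 4.06 holds only the limits of undetected wells. In the negative direction they were miR-685 (-4.97), rno-miR-351 (-3.91), miR-410 (-2.43), miR-409-3p (-5.64) and miR-741 (-11.74). miR-741 was read on the 3 syngeneic GIL arrays at Ct 17.9 to 20.9 and on 1 of 3 allogeneic GIL arrays at Ct 28.5, with the hearts of both kinds at 28.1 to 30. rno-miR-351 was higher in GIL by 3.28 in syngeneic transplants and differed by -0.62 in allogeneic ones. miR-409-3p, of the Dlk1-Dio3 cluster, was higher by 3.14 in syngeneic transplants and differed by -2.50 in allogeneic ones, with 1 allogeneic GIL array undetected.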

How the results depend on the processing

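The 38 calls between GIL and heart became 19 scaled to MammU6, 14 scaled to snoRNA135 with snoRNA202 and 17 scaled to snoRNA202. Without a filter on detection they became 156, 132 higher and 24 lower. That setting takes in assays undetected in both groups, whose limits lie higher in GIL than in the hearts. Over assays read on all 6 arrays 60 were called. With 12 arrays in the fit there were 83, and with 12 arrays and run day as a random block 93. That last setting was chosen after seeing the data, since with 6 arrays the block could not be fitted, and no run day held both groups. Leaving out 1 array gave 2 to 50. With the replicate block (the replicate number as a pairing of pools) 8 calls were left, 2 higher and 6 lower, and 44 of the interaction; same-numbered pools had correlations of deviations of -0.12, 0.13 and -0.06 over 154 assays, so the numbers were not taken to pair them. The 53 interaction calls became 14 scaled to MammU6, 28 scaled to snoRNA135 with snoRNA202 and 30 scaled to snoRNA202, and ran from 30 to 63 with 1 array left out.

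Of the 38 called assays the naming rule took 34 for this difference (miR-685 was taken for its interaction alone, and 3 by no part of the rule). Of these 34, 12 were called under all 6 scalings and all 34 kept their sign under them. The 2 called under each alternative that could test them were miR-451 and miR-211, the latter always with undetected hearts. Over the 34 assays and the other named results, 231 values of single assays or counts lost a call under an alternative, 88 gained one and 0 reversed. The limit of an undetected well lies higher in GIL pool 3 (-6.73) than in the hearts (-13.2 to -12.7), and with 3 arrays per group the spread rests on few values.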

Other observations

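The infiltrate was also set against the change that rejection brings to the whole heart, with arrays that the 2 differences do not share. Across 144 assays read on all 12 transplant arrays and on the normal heart array, the allogeneic GIL minus normal heart difference and the allogeneic minus syngeneic heart difference had a Pearson correlation of 0.54 and a Spearman correlation of 0.58. Both differences had the same sign in 115 assays (79.9%), 48 above 0 and 67 below. Assays are not replicates, and these values are a description. miR-142-3p, of leukocytes, was 3.79 higher in GIL than in normal heart and 1.47 higher in allogeneic than in syngeneic hearts, and miR-182 4.82 and 2.47. Lymphocyte markers went both ways. Of the resting lymphocyte list miR-342-3p had 0.76 and 1.12, whereas miR-150 had -0.22 and -0.66, miR-181a -0.96 and -0.52, and miR-181c -1.75 and -0.76. Of the activated T cell list miR-146a had 0.47 and -0.15, and the other members among these assays lay above 0 in both. miR-133a differed by -5.27 and -1.84, and endothelial miR-126-3p by -3.79 and -1.81. miR-451 went the opposite way, with -3.76 in GIL against normal heart and 3.82 in allogeneic against syngeneic hearts. So did miR-379, with 3.01 and -0.97, and miR-199a-3p, with 0.59 and -2.11. The normal heart is 1 array, and the strain of the heart differs between allogeneic and syngeneic grafts.

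Of the 38 assays called between GIL and heart, 3 fall outside the naming rule and were singled out after their values were seen. miR-574-3p was higher in GIL by 1.34, miR-34b-3p by 1.35, and miR-125b-3p is described with the bounds.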
